A study of Mus musculus with 2 samples.

Results

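The cadherin superfamily genes analysed here were chosen by gene symbol. They were the probe sets with exactly 1 platform symbol that began with Cdh and a digit or with Pcdh, which gave 101 of the 45101 probe sets on each array and 56 of 18193 genes. Of the 56 genes, 21 were Cdh genes, 23 were clustered protocadherins and 12 were other protocadherins. The clustered protocadherins were 22 Pcdhb genes and Pcdhgc4, because the Pcdha probe sets of this platform are each assigned to several genes.

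RNA was measured in glomeruli, the filtering units of the kidney, isolated by sieving from male C57BL/6J mice with floxed alleles of both GC-A and p38. The double knockout, called knockout glomeruli below, also carried Nephrin-Cre (Cre/+), in which the promoter of a podocyte gene drives the recombinase, and the floxed control, called control glomeruli, was Nephrin-Cre (+/+), read here as having no Cre. Mice of both genotypes were 2 months old and had been given 6% NaCl in the diet and aldosterone at 0.2 µg per kg body weight per minute by minipump for 3 weeks, so the control is a loaded kidney too and no unloaded mice were analysed here. Each genotype had 1 array, and how many animals were pooled on it is not given in the labels. No difference below therefore has a replicate check, no test could be made, and "higher" or "lower" says where the knockout array stood relative to the control array.

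Cadherins are transmembrane proteins that hold neighbouring cells together through calcium-dependent repeats outside the cell. Classical cadherins bind catenins inside the cell and so connect the junction to actin, and different cell types carry different ones: E-cadherin is typical of epithelia, VE-cadherin of endothelium, and N-cadherin and cadherin-11 of many mesenchymal cells. Protocadherins share the repeats but not the catenin-binding tail. The clustered ones lie in tandem arrays, and in neurons each cell uses a small choice of them as an identity tag. In the kidney, cadherin-6 is known from the early nephron, and Ksp-cadherin, the product of Cdh16, marks tubules.

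Values are MAS5 signals, which are linear intensities scaled to the same trimmed mean on each array. A signal below 52.7, which is the 40th percentile averaged over both arrays, was taken as not measured and was raised to that floor before log2. A fold against a signal under the floor is a lower bound. Each gene was read on its brightest probe set by mean log2 signal. Of the 56 genes, 30 reached the floor on at least 1 array. These were 10 Cdh genes, 12 clustered protocadherins and 8 other protocadherins, and 22 of the 30 reached it on both arrays. A further 7 were measured only in knockout glomeruli and 1, Pcdhgc4, only in control glomeruli. Those 7 could only have come out higher, so their direction carries no weight.

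The arrays as a whole were of like scale, with median signals of 94.7 in knockout glomeruli and 88.6 in control glomeruli. All 17 podocyte markers on the arrays were above the floor on both, with a median log2 difference of 0.51 and sums of 124200 in knockout glomeruli and 90364 in control glomeruli, and markers of tubules and macrophages were measured too. All 16 macrophage and monocyte markers were above 0, of which Itgam and Aif1 were measured only in knockout glomeruli and could come out only higher, against 56.1% of all measured genes above 0. Their median was 0.88, with sums of 15275 in knockout glomeruli and 8533 in control glomeruli. Parietal epithelial markers had a median of 0.78 with 8 of 11 above 0, none below the floor, and sums of 26122 in knockout glomeruli and 18934 in control glomeruli, and their part in the differences of Cdh6 and Cdh3 was not tested. Npr1, which encodes GC-A, had 102 in knockout glomeruli and 167 in control glomeruli, on its only probe set. The labels do not name the p38 gene; Mapk14 (p38α) was read on the assumption that it is the one, and had 2607 in knockout and 2628 in control glomeruli on its brightest probe set. Where their probe sets lie relative to the floxed exons is not given in the sources used here.

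In knockout glomeruli 6 of the 30 measured genes were higher by 2-fold or more, namely Cdh6, Pcdhb22, Cdh3, Pcdh19, Pcdhb9 and Cdh11, and none was lower by that size. Of the 6, Pcdhb22 was below the floor in control glomeruli. Over all 13290 measured genes 3.53% were higher and 2.87% lower by 2-fold or more. Among the 22 that reached the floor on both arrays, 5 were at least 2-fold higher, against 3.34% of the 12284 such genes, and 18 had a difference above 0, against 56.1%. The median log2 difference of the 30 genes was 0.56, against 0.07 over all measured genes. It depended on scale: relative to the median of 60 glomerular cell markers, 0.63, the median of the 30 was -0.066, 1 gene (Cdh6) was past 2-fold higher and 2 (Cdh16 and Pcdh9) past 2-fold lower, and all genes then split into 67 higher and 2405 lower in place of 469 higher and 382 lower. With the arrays centred on their medians, 6 members were still at least 2-fold higher and 0 lower, while all genes split into 333 higher and 530 lower. The sign of 8 members turned on the glomerular scale (Cdh4, Cdh13, Pcdh1, Pcdh7, Pcdh17, Pcdh18, Pcdhb12 and Pcdhb20). That of Cdh4, Pcdh7 and Pcdhb20 also turned under median, 75th percentile, quantile and loess scaling, so no direction is read from these 3. All 8 are counted among the 18 above 0.

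**Figure D1:**
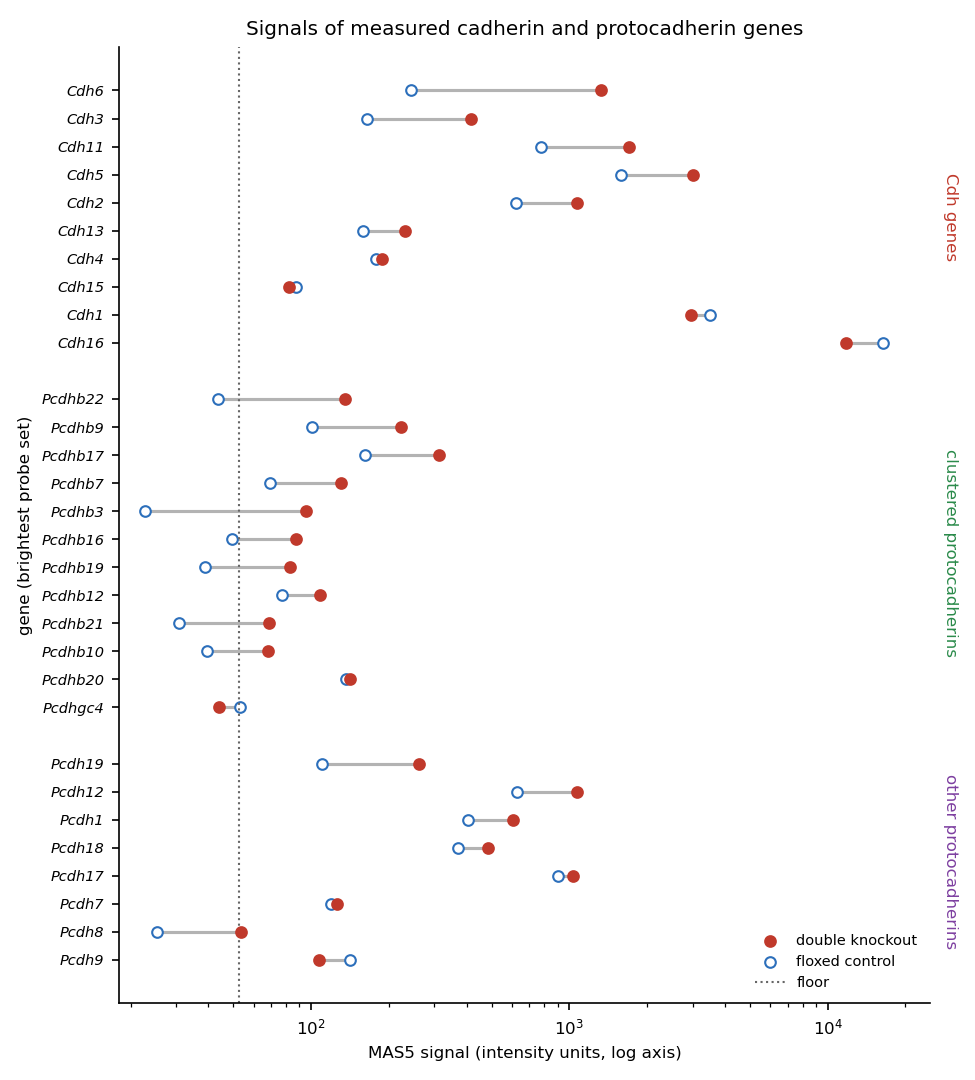
Signals of the 30 measured cadherin and protocadherin genes on the array of the double knockout (filled red) and of the floxed control (open blue), on a log axis in MAS5 intensity units, sorted by difference within each group. The dotted line is the floor at 52.7. The longest line between arrays that are both above the floor is that of Cdh6, and the lines of Cdh16, Cdh1, Cdh15 and Pcdh9 run the other way above the floor. Levels of different probe sets are not comparable with each other.

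Cdh6, which encodes cadherin-6 (K-cadherin), a type II cadherin of the developing nephron, had a signal of 1329 in knockout glomeruli, against 243 in control glomeruli, 5.47-fold higher. Its second probe set read 774 in knockout glomeruli and 183 in control glomeruli, 4.23-fold higher. The arrays thus differed in the same direction on both probe sets. None of the 500 measured genes nearest to Cdh6 in mean signal was as far above the control, and it was the only one past 3-fold among the 22 members above the floor on both arrays. It was 1.82 on the log2 scale after subtracting the glomerular marker median.

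Pcdh19, which encodes a δ2-protocadherin known from brain, had a signal of 261 in knockout glomeruli, against 110 in control glomeruli, 2.36-fold higher. Another probe set read 221 in knockout glomeruli and 102 in control glomeruli (2.16-fold), and the remaining one was below the floor on both arrays, at 45.3 in knockout and 39.0 in control glomeruli. Among the 500 genes of like signal 3.60% were as high. With the floor at the 60th percentile the log2 difference of Pcdh19 was 0.53 in place of 1.24.

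Of the 4 genes at least 2-fold higher whose sequence could be shown, the RefSeq promoter table (GRCm38.p6) holds Cdh6 and Pcdh19. They are shown because the table holds them, and they are a cadherin and a protocadherin that were both higher on 2 probe sets. Each runs from 250 bases before to 50 bases after the annotated start, 5′ to 3′ in the direction of the gene as the table gives it. The Cdh6 window is chr15:13173626-13173925 on the minus strand and the Pcdh19 window is chrX:133688944-133689243 on the minus strand. Capitals mark the GC box.
Cdh6: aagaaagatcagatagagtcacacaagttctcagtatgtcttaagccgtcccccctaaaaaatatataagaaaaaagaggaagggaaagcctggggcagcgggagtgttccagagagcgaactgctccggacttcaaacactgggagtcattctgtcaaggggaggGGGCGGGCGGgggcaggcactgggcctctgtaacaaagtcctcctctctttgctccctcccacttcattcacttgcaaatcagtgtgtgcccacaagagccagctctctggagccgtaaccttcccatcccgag
Pcdh19: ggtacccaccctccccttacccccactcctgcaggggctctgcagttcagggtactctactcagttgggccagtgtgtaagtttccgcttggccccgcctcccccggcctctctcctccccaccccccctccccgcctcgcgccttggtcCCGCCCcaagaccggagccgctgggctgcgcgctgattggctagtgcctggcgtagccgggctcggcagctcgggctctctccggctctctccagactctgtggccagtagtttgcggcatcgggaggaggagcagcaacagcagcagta
In all 4 motifs were searched on both strands. The GC box GGGCGG occurred as 2 overlapping matches in the Cdh6 window and as 1 match in the Pcdh19 window, and 35.7% of the 32851 promoters of the table hold it. Neither window held the E2-box CACCTG that Snail and Zeb repressors recognise (20.2% of promoters), the AP-1 site TGANTCA (7.81%) or the TATA box TATAAA (13.6%). A match is a description of these letters and not a bound site. The GC content was 53.0% in the Cdh6 window and 67.7% in the Pcdh19 window.

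The other type II cadherins were higher too. Cdh11, whose product (OB-cadherin) is typical of mesenchymal cells, had a signal of 1694 in knockout glomeruli, against 778 in control glomeruli, 2.18-fold higher, and its second probe set read 240 in knockout and 111 in control glomeruli (2.16-fold). Cdh5, which encodes VE-cadherin of endothelial junctions, had 3011 in knockout glomeruli and 1591 in control glomeruli, 1.89-fold higher, and its second probe set 269 in knockout and 156 in control glomeruli (1.72-fold). Both genes thus had the same direction on both of their probe sets. Cdh11 and Cdh5 were matched or passed by 1.40% and 2.00% of the genes of like signal. The remaining 8 type II genes on the arrays (Cdh7, Cdh8, Cdh9, Cdh10, Cdh18, Cdh19, Cdh20 and Cdh22), several of them known from the nervous system, were below the floor on both arrays.

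Endothelial, mesangial and mural markers were mostly higher too, while fibroblast markers were mixed. Of all measured genes, 56.1% were above 0. All 18 markers of glomerular endothelium were above 0, with a median log2 difference of 0.74, summed signals of 71804 in knockout glomeruli and 44038 in control glomeruli, and none below the floor. The log2 difference of Cdh5 was 0.92. Of the 14 mesangial and mural markers 13 were above 0, with a median of 0.67 and sums of 47758 in knockout glomeruli and 29249 in control glomeruli, and none below the floor. Fibroblast markers had a median of 0.58 over 10 measured genes, 6 above 0, with sums of 13475 in knockout and 8963 in control glomeruli. Of those 6, Dpt and Postn were measured only in knockout glomeruli and could come out only higher, Pdgfra, Dcn, Lum and Fbln1 were below 0, and Fap, another of the 11 listed, was below the floor on both arrays. The part of these cells in the differences of Cdh5 and Cdh11 was not tested, and in RNA of whole glomeruli more cells of a type cannot be told apart from more RNA per cell.

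The 5 type I cadherins differed among themselves. Cdh3, which encodes P-cadherin, had a signal of 415 in knockout glomeruli, against 165 in control glomeruli, 2.52-fold higher; its other probe set was below the floor, at 13.0 in knockout and 6.35 in control glomeruli. Cdh2, which encodes N-cadherin, had 1073 in knockout glomeruli and 619 in control glomeruli, 1.73-fold higher, and its other probe set 330 in knockout and 272 in control glomeruli, or 1.21-fold. For Cdh4, whose product is R-cadherin, the 2 probe sets above the floor read 187 and 160 in knockout glomeruli and 178 and 98.4 in control glomeruli, 1.05-fold and 1.63-fold apart, with the sign of the first turned by other scalings. The probe sets of Cdh2 differed from each other by 0.51 and those of Cdh4 by 0.63 on the log2 scale, and Cdh3 had only 1 measured probe set. Cdh15, the M-cadherin of muscle, was near the floor, with 82.1 in knockout glomeruli and 87.7 in control glomeruli.

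Cdh1, which encodes E-cadherin of epithelial junctions, was one of the few lower members, with a signal of 2956 in knockout glomeruli and 3512 in control glomeruli, a log2 difference of -0.25. Cdh16 was lower as well, with 11738 in knockout glomeruli and 16420 in control glomeruli, a log2 difference of -0.48. Each gene has 1 probe set, and neither difference was large for its signal: 30.8% and 37.0% of the genes nearest in signal were as low. Both genes are known from tubule epithelium. All 17 proximal tubule markers were below 0, with a median of -0.89 and sums of 123310 in knockout glomeruli and 202470 in control glomeruli, and 18 of 19 markers of the loop, distal tubule and collecting duct were below 0, with a median of -0.75 and sums of 51119 in knockout and 73345 in control glomeruli. None of these markers was below the floor. The part of tubule fragments in the values of Cdh1 and Cdh16 was not tested.

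Among the remaining Cdh genes, Cdh13 encodes T-cadherin, which is held in the membrane by a lipid anchor. It had a signal of 230 in knockout glomeruli, against 158 in control glomeruli, 1.46-fold higher. A second Cdh13 probe set read 212 in knockout and 132 in control glomeruli (1.60-fold), the next one 79.7 in knockout glomeruli and 27.3, below the floor, in control glomeruli (at least 1.51-fold), and the last was below the floor on both arrays. Cdh17, Cdh23 and Cdh26 were below the floor. Over the 10 measured Cdh genes 7 were above 0 and 3 below, all on both arrays above the floor, beside 56.1% of all measured genes above 0. The 7 include Cdh4, from which no direction is read. Their median of 0.67 became 0.04 relative to the glomerular marker median. With the floor at the 25th percentile, which adds further Cdh genes, the median was 0.21. Over all 21 Cdh genes it was 0.41 without a floor and 0.11 with a pseudocount. The differences of the 10 measured genes do not change when the floor is left out.

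**Figure D2:**
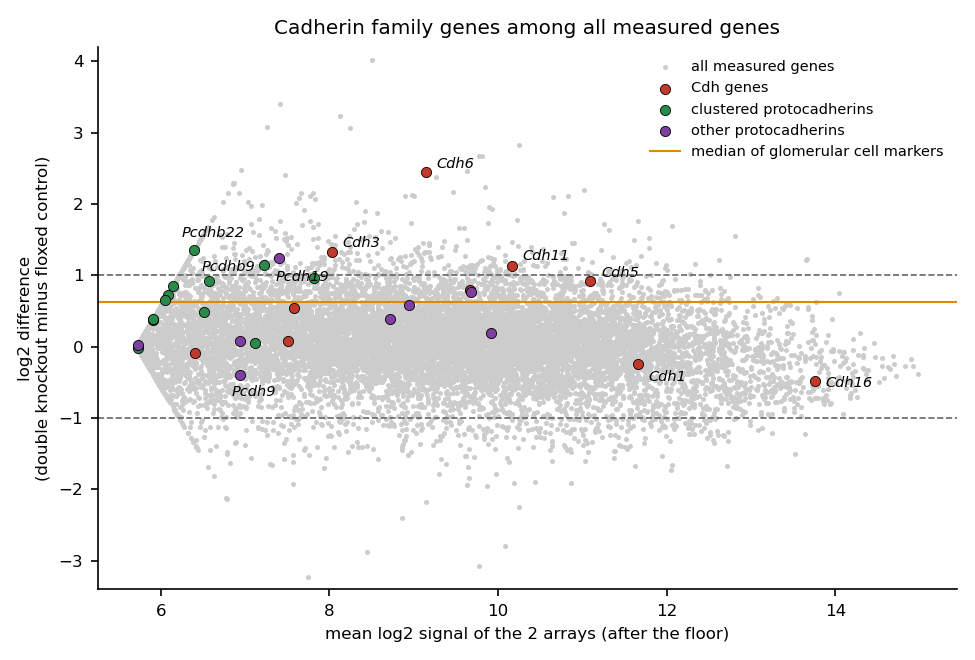
Log2 difference (double knockout minus floxed control) of the 13290 measured genes against their mean log2 signal, with the Cdh genes in red, clustered protocadherins in green and other protocadherins in purple. Dashed lines mark 2-fold and the orange line the glomerular marker median of 0.63. Cdh6 stands at 2.45, above the genes of like signal, and Cdh1 and Cdh16 lie below 0.

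The clustered protocadherins were dim on these arrays. Signals of the 12 measured ones ran from 44.0 to 314 in knockout glomeruli and from 22.8 to 161 in control glomeruli, and 5 of the 22 Pcdhb genes reached the floor on both arrays. All of these 5 read higher in knockout glomeruli, Pcdhb20 by so little that other scalings turned it. The sign of Pcdhb12 also turned after recentring on glomerular markers, to -0.14. Pcdhb9 had 222 in knockout glomeruli, against 101 in control glomeruli (2.21-fold, log2 1.14, which became 0.30 with the floor at the 60th percentile, 0.94 with a pseudocount and 0.99 after removal of the loess trend). Also above the floor, Pcdhb17 had 314 in knockout and 161 in control glomeruli (1.95-fold). Pcdhb7 had 131 in knockout glomeruli and 69.3 in control glomeruli (1.89-fold), and Pcdhb12 had 108 in knockout and 77.2 in control glomeruli (1.40-fold). Pcdhb20 differed little, at 142 in knockout glomeruli and 137 in control glomeruli.

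A further 6 Pcdhb genes were above the floor in knockout glomeruli alone. Pcdhb22 had 135 in knockout glomeruli, against 43.5 in control glomeruli, at least 2.57-fold higher. Pcdhb3 had 95.2 in knockout glomeruli and 22.8 in control glomeruli (at least 1.81-fold), Pcdhb16 had 87.0 in knockout and 49.5 in control glomeruli (at least 1.65-fold), and Pcdhb19 had 83.1 in knockout and 38.8 in control glomeruli (at least 1.58-fold). Another Pcdhb16 probe set read 51.4 in knockout glomeruli and 55.1 in control glomeruli, and its last was below the floor. The lower bounds of the remaining pair, Pcdhb10 and Pcdhb21, were 1.30-fold each. Pcdhgc4 had 44.0 in knockout glomeruli and 53.2 in control glomeruli, just above the floor.

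To account for all 22 Pcdhb genes, the signals were also compared without a floor. In this form 17 of 22 were higher in knockout glomeruli, against 54.3% of all 18193 genes. The median log2 difference was 0.70, against 0.06 over all genes. All 11 measured Pcdhb genes are among the 17, and 6 of these were measured only in knockout glomeruli. The lower ones, Pcdhb1, Pcdhb2, Pcdhb6, Pcdhb8 and Pcdhb18, were all below the floor on both arrays. The 11 Pcdhb genes below the floor on both arrays had signals of up to 50.5, where ratios carry little information: Pcdhb4 read 36.1 in knockout glomeruli and 5.32 in control glomeruli, and Pcdhb2 7.65 in knockout and 13.7 in control glomeruli. The Pcdhb genes are close copies of each other, so a probe set may also read a neighbour. None of the 11 measured Pcdhb genes was read on a probe set with a suffix for shared sequence (_s_at or _x_at), and cross-hybridisation was not tested. The median of the 12 measured clustered genes was 0.69, of which 6 could come out only higher, and it was 0.06 relative to the glomerular marker median. With a pseudocount, which counts all 23 clustered genes, the median was 0.33.

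Along the cluster the measured Pcdhb genes were spread from Pcdhb3 to Pcdhb22, as the plot of the Pcdhb genes shows. Those above the floor on both arrays were Pcdhb7, Pcdhb9, Pcdhb12, Pcdhb17 and Pcdhb20, with log2 differences from 0.05 for Pcdhb20 to 1.14 for Pcdhb9. The others, Pcdhb3, Pcdhb10, Pcdhb16, Pcdhb19, Pcdhb21 and Pcdhb22, give only lower bounds, so sizes of neighbours were not compared.

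**Figure D3:**
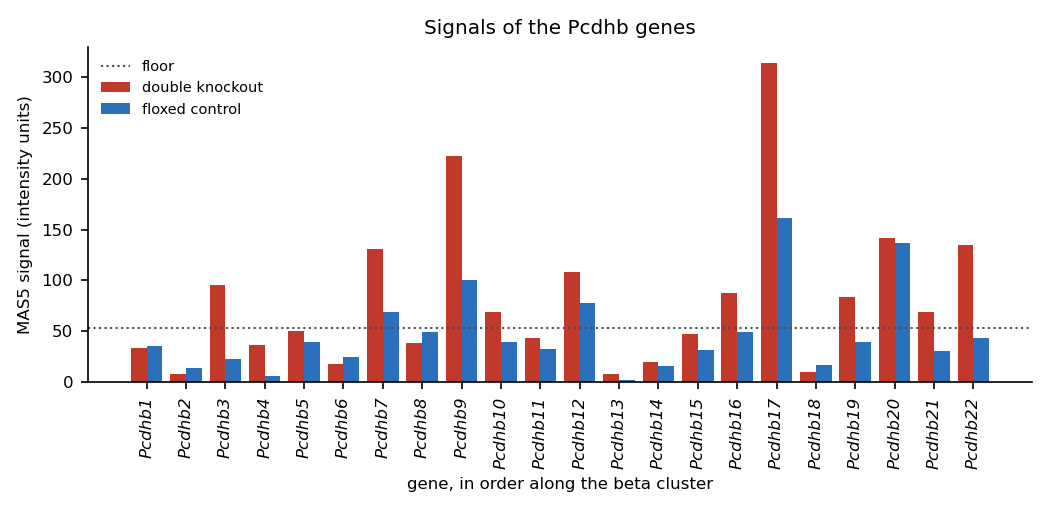
MAS5 signals of the 22 Pcdhb genes in their order along the cluster, for the double knockout (red) and the floxed control (blue), with the floor at 52.7 as a dotted line. Bars of 11 genes reach the floor on at least 1 array. For 6 of these only the red bar reaches it, so the red bar had to be the higher one. Only 5 blue bars reach the floor, those of Pcdhb7, Pcdhb9, Pcdhb12, Pcdhb17 and Pcdhb20. In these 5 genes the red bar is the higher one too, that of Pcdhb20 by a margin that other scalings turn. The sign of Pcdhb12 turns after recentring on glomerular markers.

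The other protocadherins above the floor included both large and small differences. Pcdh12, a protocadherin of endothelial cells, had a signal of 1071 in knockout glomeruli, against 627 in control glomeruli, 1.71-fold higher, and its second measured probe set read 73.6 in knockout and 55.6 in control glomeruli (1.32-fold). Pcdh17, a δ2-protocadherin, had 1031 in knockout glomeruli and 900 in control glomeruli on one probe set (1.15-fold) and 900 in knockout and 786 in control glomeruli on the other (1.14-fold). The log2 difference of Pcdh12, 0.77, was near the median of the endothelial markers, 0.74, and that of Pcdh17, 0.20, was below the lowest of those 18 markers, 0.23.

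Pcdh18, also a δ2-protocadherin, had signals of 484 and 211 in knockout glomeruli and 370 and 131 in control glomeruli on its 2 probe sets above the floor, 1.31-fold and 1.61-fold higher. Pcdh1, a δ1-protocadherin known from human airway epithelium, had 604 in knockout glomeruli and 404 in control glomeruli, 1.49-fold higher. Both were below the glomerular marker median, by 0.24 for the brighter Pcdh18 probe set and 0.05 for Pcdh1 on the log2 scale. The δ1-protocadherin gene Pcdh7 differed little, at 126 in knockout glomeruli and 119 in control glomeruli. Pcdh9, from the same subfamily, was lower, at 107 in knockout glomeruli and 141 in control glomeruli, a log2 difference of -0.40. As low were 15.4% of genes of like signal. The other Pcdh9 probe sets were below the floor on both arrays and read the other way. They had 30.0 and 36.5 in knockout glomeruli and 19.2 and 5.99 in control glomeruli.

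Pcdh8 read 53.3 in knockout glomeruli, just above the floor, and 25.3 in control glomeruli. A Pcdh8 probe set with the _x_at suffix read 83.5 in knockout and 33.3 in control glomeruli, at least 1.59-fold higher. Pcdh10, Pcdh11x, Pcdh15 and Pcdh20 were below the floor on both arrays, with no signal above 37.2 on the probe set used. The 8 measured genes of this group had a median of 0.29, which became -0.34 relative to the glomerular marker median, with Pcdh19 the only one at least 2-fold higher.

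Several probe sets of a gene were the only internal repeat these arrays offered. In 10 member genes 2 probe sets reached the floor on both arrays, and in 10 of 10 both were higher in knockout glomeruli. The brighter Cdh4 probe set turned under other scalings, and those of Cdh13, Pcdh17 and Pcdh18 turned after recentring on glomerular markers. The dimmer probe sets of Cdh2 (0.28), Pcdh12 (0.40) and Pcdh17 (0.19) were also below the glomerular marker median of 0.63. Both probe sets were above that median in Cdh5, Cdh6, Cdh11 and Pcdh19. The share over all genes with 2 probe sets above the floor on both arrays was not computed. Of all genes above the floor on both arrays, 56.1% had a difference above 0, which is a share of single genes and not of pairs of probe sets. The spread between the 2 probe sets of a member ran from 0.00 for Pcdh17 and 0.01 for Cdh11 to 0.63 for Cdh4 on the log2 scale. Probe sets of a gene share the RNA and the array, so they bear on the reading of the gene and not on the genotype. Counted as probe sets, 43 of 101 were measured, of which 32 reached the floor on both arrays. Of the 43, 9 were past 2-fold higher and 0 past 2-fold lower, against 3.27% and 2.39% of all measured probe sets with 1 symbol. The 9 belong to the same 6 genes counted above, with 2 each from Cdh6, Cdh11 and Pcdh19, so they add no further gene. The Pcdhb22 probe set among them was below the floor in control glomeruli.

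**Figure D4:**
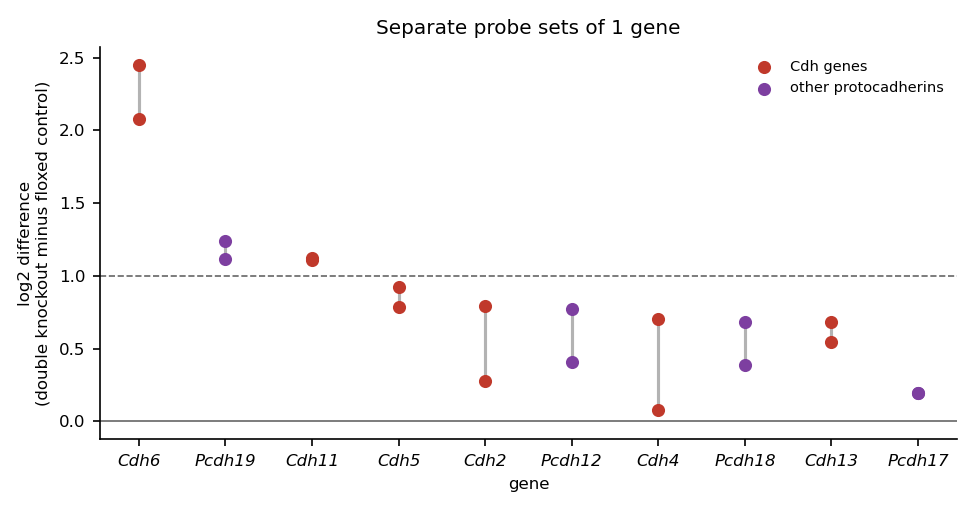
Log2 difference (double knockout minus floxed control) of each probe set above the floor on both arrays, for the 10 member genes with 2 such probe sets, Cdh genes in red and other protocadherins in purple. The dashed line marks 2-fold. The 2 points of Cdh6 are at 2.45 and 2.08, those of Pcdh19 and Cdh11 lie above 1, and those of Cdh4 and Cdh2 are the farthest apart.

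A smaller size rule drew a wider set. At 1.5-fold, 14 of the 30 measured members were higher and 0 lower, against 13.7% and 10.0% of all measured genes. Pcdhb22, Pcdhb3, Pcdhb16 and Pcdhb19 among the 14 were measured only in knockout glomeruli, and of the 22 members above the floor on both arrays 10 were higher and 0 lower by this size. A difference above 0 was found for 25 of the 30, against 56.1% of all measured genes, and 7 of the 25 are the genes that could come out only higher. The 25 also include Cdh4, Pcdh7 and Pcdhb20, whose sign other scalings turned and from which no direction is read. Of the 14, 7 were clustered, 5 were Cdh genes and 2 were other protocadherins.

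The genes that work with cadherins were read from gene lists. The catenins and related armadillo proteins, several of which bind cadherin tails, had a median of 0.05. Of 11 measured genes none was past 2-fold and 6 were above 0, which is near the share of all measured genes above 0 (56.1%). Ctnnb1 (β-catenin) had a signal of 16549 in knockout glomeruli and 17344 in control glomeruli, and Ctnna1 (α-catenin) had 8865 in knockout and 8997 in control glomeruli. Neither was apart by more than 1.05-fold. Pkp2, a plakophilin, had the largest difference, 0.63, followed by Ctnnbip1, which encodes an inhibitor of β-catenin, at -0.42, and Ctnnd1 (p120-catenin) at 0.40. Relative to the glomerular marker median, the median of the catenin list was -0.58.

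Scaffolds of adherens junctions and nectins had a median of 0.36, with 18 of 21 above 0, against 56.1% of all measured genes. By 2-fold or more 2 were higher and 0 lower, against 3.53% and 2.87% of all measured genes. Actn1, which encodes the actin crosslinker α-actinin-1, had 5127 in knockout glomeruli and 2136 in control glomeruli (2.40-fold), and Shroom3, an actin regulator of epithelia, had 2746 in knockout and 1169 in control glomeruli (2.35-fold). Desmosomal cadherins and plakins had a median of 0.07 over 5 measured genes and none past 2-fold; Dsp (desmoplakin) was 1.53-fold higher. The scaffold and desmosome medians were -0.27 and -0.55 relative to the glomerular marker median.

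The list of atypical cadherins, outside the symbol rule, also holds Fjx1, whose product modifies Fat and Dachsous cadherins and is no cadherin itself. The list had a median of 0.52 over 11 measured genes, or -0.11 relative to the glomerular marker median. Of the 11, 8 were above 0, against 56.1% of all measured genes. Cdhr2, which encodes a protocadherin of the microvillar brush border, was the only one past 2-fold, with 419 in knockout glomeruli and 998 in control glomeruli, 2.38-fold lower. Its brush border partner gene Cdhr5 was 1.65-fold lower (3525 in knockout and 5814 in control glomeruli, a log2 difference of -0.72), on arrays in which all 17 proximal tubule markers were lower. After Fjx1, at 0.99, the largest positive log2 differences were those of Clstn2 (0.88), a calsyntenin, and Fat1 (0.80), a giant cadherin of podocytes and other epithelia.

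Of 14 repressors of cadherin genes and genes of mesenchymal state, 11 were measured. All 11 were above 0, against 56.1% of all measured genes, with a median of 0.61, or -0.01 relative to the glomerular marker median. Of the 11, 3 were at least 2-fold higher, against 3.53% of all measured genes. Snai1, measured only in knockout glomeruli, could come out only higher. The 3 listed genes that were not measured, Snai3, Twist2 and Prrx1, were below the floor on both arrays and read lower in knockout glomeruli there (Snai3 with 7.79 in knockout and 34.3 in control glomeruli). Fn1 (fibronectin) had 4428 in knockout glomeruli and 968 in control glomeruli (4.57-fold), and Vim (vimentin) had 19891 in knockout and 8504 in control glomeruli (2.34-fold). Snai2, which encodes the repressor Slug, had 326 in knockout glomeruli and 150 in control glomeruli (2.18-fold). These values stood beside a 1.19-fold lower signal of Cdh1, where 30.8% of genes of like signal were as low. Cdh2 was 1.73-fold higher on its brighter probe set and 1.21-fold on the other. Any relation between these values was not tested.

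Proteases and endocytic proteins that remove cadherins from the surface had a median of 0.25 over 21 measured genes and none past 2-fold; Dab2, an endocytic adaptor, was farthest from 0, at -0.74. Regulators and partners of clustered protocadherins had a median of 0.29 over 18 genes, with none at least 2-fold higher. Ptk2b, which encodes the kinase Pyk2, was 2.08-fold lower, with 327 in knockout glomeruli and 680 in control glomeruli. Smchd1, a repressor of the clusters, was 1.46-fold higher, at 1278 in knockout glomeruli and 872 in control glomeruli. Both medians were below the glomerular marker median, by 0.38 and 0.34.

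**Figure D5:**
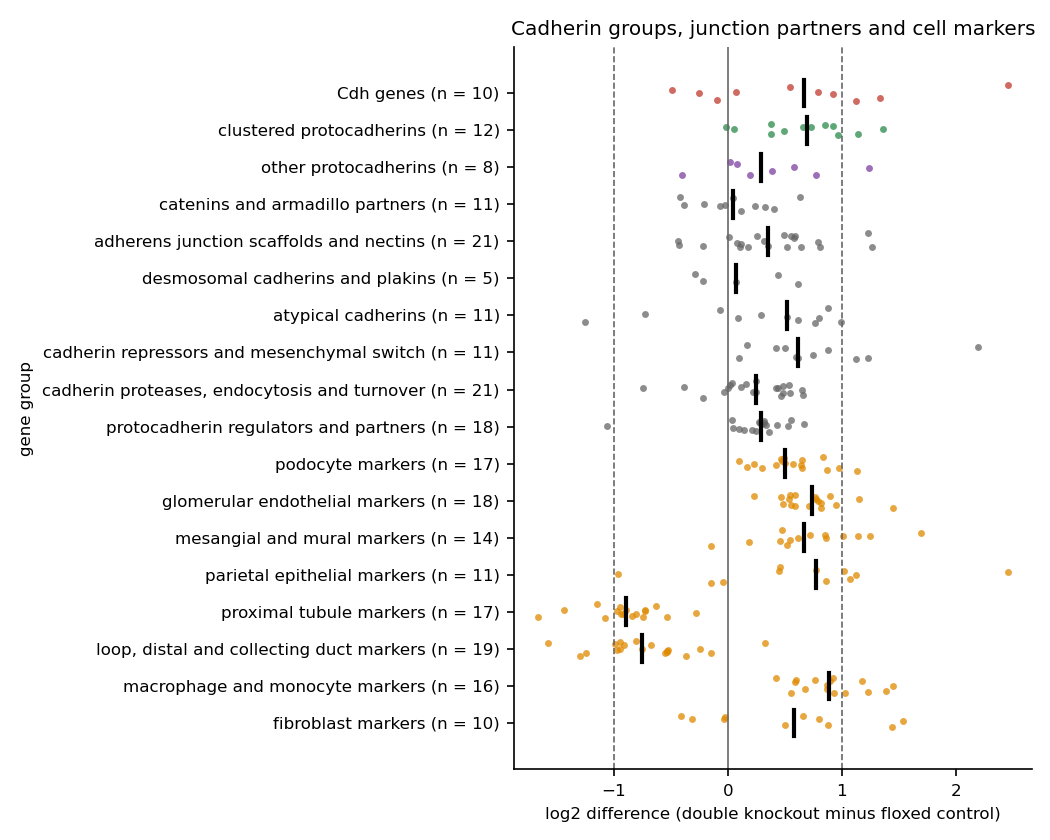
Log2 difference (double knockout minus floxed control) of each measured gene in the cadherin groups (coloured), the lists of junction partners and regulators (grey) and the cell marker lists (orange), with black bars at the medians and dashed lines at 2-fold. The Cdh genes and clustered protocadherins have medians of 0.67 and 0.69, where 6 of the 12 clustered genes could come out only higher, and the tubule lists lie at -0.89 and -0.75. After recentring on the glomerular markers the medians of the Cdh genes and clustered protocadherins are 0.04 and 0.06. With a pseudocount, which counts all 21 Cdh genes and all 23 clustered protocadherins, they are 0.11 and 0.33.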

How the data were processed

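RNA of isolated glomeruli was labelled by a 3′ in vitro transcription protocol and hybridised to 1-colour arrays, per the labels' protocols, and 2 arrays were analysed, 1 per genotype. The deposited intensity values are linear, 1 per probe set, and come from MAS5 according to the labels and per the submitters' processing notes; its version is not given in the sources used here. The trimmed mean, without 2% at each end, was 500.0 on both arrays. Values were used unscaled with Python 3.11.15, numpy 2.4.6, pandas 2.3.3 and statsmodels 0.14.6. Gene names came from the platform annotation held by GEO, and all 56 member genes matched RefSeq identifiers. The 64 control probe sets were left out. Probe sets ending in _x_at were used only where a gene had no other.

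The cadherin genes, the 15 lists and the settings were chosen with earlier results of these data known. Members were named where both signals reached the floor or the difference was at least 1.5-fold; the other 4 measured members are named as exceptions. Listed genes were named where past 2-fold, or among those with the largest difference in size; Ctnnb1, Ctnna1, Cdhr5 and Smchd1 were added after their values were seen. Genes of like signal were the 500 nearest in mean log2 signal. The steps, without the recentring on glomerular markers, were tested on simulated data with known changes in genes above the floor on both arrays. The simulated noise was smaller than the spread of genes of like signal on these arrays. That check therefore does not show how often unchanged genes pass 2-fold here. With 2 arrays no p-value or error can be given, and the number of arrays limits the precision.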

Additional observations from a re-analysis of the deposited data

Results flagged for a closer look

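Outside the members, 6 probe sets are each assigned to several genes of the Pcdha cluster, and 2 of them reached the floor of 52.7 in knockout glomeruli while being below it in control glomeruli. The first, assigned to 14 genes, read 55.4 in knockout glomeruli and 27.5 in control glomeruli. The second, assigned to 9 genes, read 52.8 in knockout glomeruli and 32.8 in control glomeruli. Both signals are so close to the floor that no fold is given, and the gene behind them was not resolved. The other 4 were below the floor on both arrays, at up to 31.7. They are listed because no comparison used them and they passed the floor; having passed it only in knockout glomeruli, they had to read higher there, and no signal of the Pcdha genes is read from them.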

How the results depend on the processing

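With 1 array per genotype there was no replicate to leave out and no paired analysis. Settings that change the floor also change which genes count as measured. Without a floor or with a pseudocount all 56 members and all 18193 genes were counted. The count of members at least 2-fold higher, 6 as reported, became 10 under a 25th percentile floor, 3 at the 60th, 16 without a floor, 1 after recentring on glomerular markers, 14 by a 1.5-fold rule and 1 by a 3-fold rule; that of members at least 2-fold lower, 0 as reported, was 2 without a floor and 2 after recentring. For all genes the 469 higher became 274 at the 60th percentile floor, 1655 without a floor, 67 after recentring, 1820 at 1.5-fold and 73 at 3-fold, and the 382 lower became 1491 without a floor, 2405 after recentring, 1331 at 1.5-fold and 34 at 3-fold. Quantile normalization split all genes into 358 higher and 438 lower, removal of the loess trend into 341 higher and 444 lower, and 75th percentile centring into 333 higher and 530 lower. The median of the members, 0.56, was 0.39 at the 25th percentile floor, 0.40 without a floor, 0.21 with a pseudocount of 32, 0.43 after removal of the loess trend and -0.066 after recentring; that of the other protocadherins turned to -0.34 after recentring. Recentring subtracts 0.63 from every gene by construction and turned the sign of 8 of the 26 named members. Median, 75th percentile, quantile and loess scaling each turned Cdh4, Pcdh7 and Pcdhb20, all of which were close to 0. Cdh6 was past 2-fold in all 11 alternatives (1.82 to 2.45), Cdh3 and Cdh11 in 10, Pcdh19 in 9, Pcdhb22 in 9 of 10 and Pcdhb9 in 7. Pcdhb22 was not measured with the floor at the 60th percentile. Its control signal was below the floor used, so its count is not comparable with those of genes above the floor on both arrays. Signals near the floor limit the Pcdhb genes most.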
